A study of Mus musculus with 15 samples.

Results

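The 10 immediate early genes Fos, Fosb, Junb, Egr1, Egr2, Egr3, Egr4, Arc, Nr4a1 and Npas4 were followed through RNA sequencing libraries of the microdissected mouse thalamus. They were taken by name from the 25080 genes listed in each library, and all 10 were found. The question was whether repeated cocaine, or loss of Maged1 in glutamatergic neurons, changed their levels. Mice 2 to 4 months old received saline for 3 days and then either cocaine (20 mg/kg, intraperitoneal) or saline for 5 days. The cKO mice carried floxed Maged1 alleles and Cre recombinase driven by the Vglut2 promoter, which is active in excitatory neurons of the thalamus and of neighbouring subcortical regions, and the animals titled Maged1 WT are called control. The thalamus was not sorted, so that glia and Vglut2-negative cells of the cKO kept an intact gene. Saline was represented by 4 libraries labelled control and 4 labelled cKO, and cocaine by 4 and 2 libraries respectively, and 1 more cKO cocaine sample was not analysed here. The time between the last injection and dissection is not given in the sources used here.

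Immediate early genes are transcribed within minutes of a stimulus without new protein synthesis. In neurons, calcium entry and cyclic AMP activate kinases that phosphorylate factors already bound at their promoters, such as CREB at cyclic AMP response elements (CRE) and SRF with its ternary complex partners at serum response elements. Most of their products are transcription factors (the Fos and Jun proteins, which pair as AP-1, the zinc finger Egr proteins, the orphan nuclear receptor Nr4a1 and the neuron-restricted Npas4), whereas Arc encodes a synaptic protein that promotes the removal of AMPA receptors. Their transcripts are short-lived, and in the brain they are used as markers of recently active neurons.

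The promoter letters of these genes are shown for Fos and Nr4a1, which both rose in the cKO libraries, and for Junb, which passed no test. RefSeq promoter windows (GRCm38.p6, 250 bases before and 50 after each start) were at hand for 7 of the 10 genes, and Egr1, Egr3 and Arc were not matched. The last 150 bases before the start are printed 5′ to 3′ on the gene's strand, and for Npas4 a 30-base stretch that holds its pair of sites. Capitals mark the core of the CRE, TGACG, on either strand, and in Fos also the TATA box, TATAAA.
Fos, chr12:85473740-85473889, plus strand: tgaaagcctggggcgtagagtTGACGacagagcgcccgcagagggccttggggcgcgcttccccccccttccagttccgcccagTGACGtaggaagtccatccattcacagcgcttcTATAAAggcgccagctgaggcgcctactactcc
Nr4a1, chr15:101266696-101266845, plus strand: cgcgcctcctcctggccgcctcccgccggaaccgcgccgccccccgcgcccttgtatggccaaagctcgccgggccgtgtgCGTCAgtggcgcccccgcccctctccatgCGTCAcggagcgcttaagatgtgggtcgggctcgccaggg
Junb, chr8:84978749-84978898, minus strand: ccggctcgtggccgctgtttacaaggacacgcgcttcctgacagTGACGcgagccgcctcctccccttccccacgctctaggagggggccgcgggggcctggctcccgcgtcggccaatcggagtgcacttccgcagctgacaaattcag
Npas4, chr19:4990123-4990152, minus strand: gaCGTCAcgggaTGACGtcggaagtctggg

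All 7 genes held at least 1 CRE core in a window, counting both strands, against 20.8% of all 32851 promoter windows. These counts differ in unit, here and below. A gene was counted when any of its windows held the motif (11 windows for the 7 genes), whereas the shares count single windows. Fos had 2 such sites, with their first base at −129 and −66 from the start. Nr4a1 had 4, at −233, −213, −69 and −40, of which the last 2 are printed. Junb had a single site at −106, and Npas4 had 2, at −179 and −169. The full CRE, TGACGTCA, which contains the core, was in none of the 7 and in 1.79% of all windows, and the AP-1 site TGANTCA was in none and in 7.81%. The serum response element (CArG box) was found in Egr2 alone of the 7, at 1.63% of all windows. The EGR site GCGNGGGCG was found in Fosb and Nr4a1, at 5.55% of all windows, and the TATA box, searched on the plus strand in the last 60 bases before the start, in Fos, at 2.87%. In the GENCODE annotation of GRCm38, Fos spans chr12:85473890-85477273 and Junb chr8:84974484-84978718, so that their printed stretches lie outside the transcribed region. Nr4a1 spans chr15:101254269-101274795, which has other starts upstream of the one used here, and Npas4 spans chr19:4984355-4990316, with its printed stretch inside the annotated gene. These are matches of letters, not sites known to be bound, and they do not cover sequence farther from the start.

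The targeted gene went against part of the labels. Maged1 was at 150 to 166 scaled TPM in the libraries labelled control saline and 64.5 to 78.0 in those labelled cKO saline, but at 58.5 to 87.9 in those labelled control cocaine and 152 to 174 in those labelled cKO cocaine. In addition, the genotype tag of 4 saline libraries (control saline 3 and 4, cKO saline 1 and 2) names the other genotype than the title, and groups follow the titles. Maged1 in these 4 went with the titles. It was at 150 and 151 scaled TPM in control saline 3 and 4. In cKO saline 1 and 2 it was at 78.0 and 76.6. Saline groups made from the tags thus mix libraries of high and low Maged1. For these reasons the comparison that leads is cocaine against saline with both genotypes averaged, which has the same value whichever cocaine group carries which genotype name, and control and cKO below are the names on the labels. Of the 12 markers listed for the thalamus all were detected, with a summed level of 558 to 856 scaled TPM. Markers of neighbours varied more: the 10 habenula markers summed to 11.7 to 195 and the 16 hypothalamus markers to 12.9 to 529, and control saline 1 stood apart in the 13 ependyma and choroid plexus markers (1480, against 7.35 to 85.1 in the other 13 libraries). As the tissue was bulk, fewer cells of a type and less RNA per cell cannot be told apart.

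Levels are given as TPM, transcript abundance divided by transcript length and library total, after scaling between libraries with trimmed means of M values (TMM). The listed TPM had a scaling factor of 0.807 to 0.947 in the cocaine libraries and 1.07 to 1.21 in the saline libraries. As deposited, the median gene was thus lower after cocaine by 0.34 on the log2 scale, whereas it was at 0.01 after scaling. The 13471 genes that reached 1 TPM in 3 or more libraries were tested. A gene passed when the adjusted p in limma was under 0.05 and the log2 fold change, on log2(scaled TPM + 0.5), was 0.5 or more in either direction. Egr1, Fos, Nr4a1, Npas4, Arc and Junb were tested, and Fosb, Egr2, Egr3 and Egr4 were below the filter.

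Egr1 was the most abundant of the 10 in saline libraries, at 8.47 ± 0.738 scaled TPM (SD, n = 8). Arc followed at 5.59 ± 1.41, Junb at 4.16 ± 0.841, Nr4a1 at 4.03 ± 0.411 and Fos at 3.64 ± 1.33. Junb, Nr4a1 and Fos lay within each other's spread, whereas Arc, over these pooled libraries, was above each of them by more than the SD of either gene. In control saline alone, Arc (4.92 ± 0.941) lay within its SD of Junb (4.44), Fos (4.44) and Nr4a1 (4.35). Npas4 was at 1.24 ± 0.313, Egr3 at 1.03 ± 0.914, Egr4 at 0.726 ± 0.328 and Fosb at 0.462 ± 0.161. The order differed between the labelled genotypes: mean Egr3 was below Egr4 in control saline (0.543 and 0.655) but above Npas4 in cKO saline (1.51 and 1.12), and Fos equalled Junb in control saline (both 4.44) but was below it in cKO saline (2.84 and 3.88). Egr2 was listed at 0 in 7 of 14 libraries and reached 0.109 at most.

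**Figure D1:**
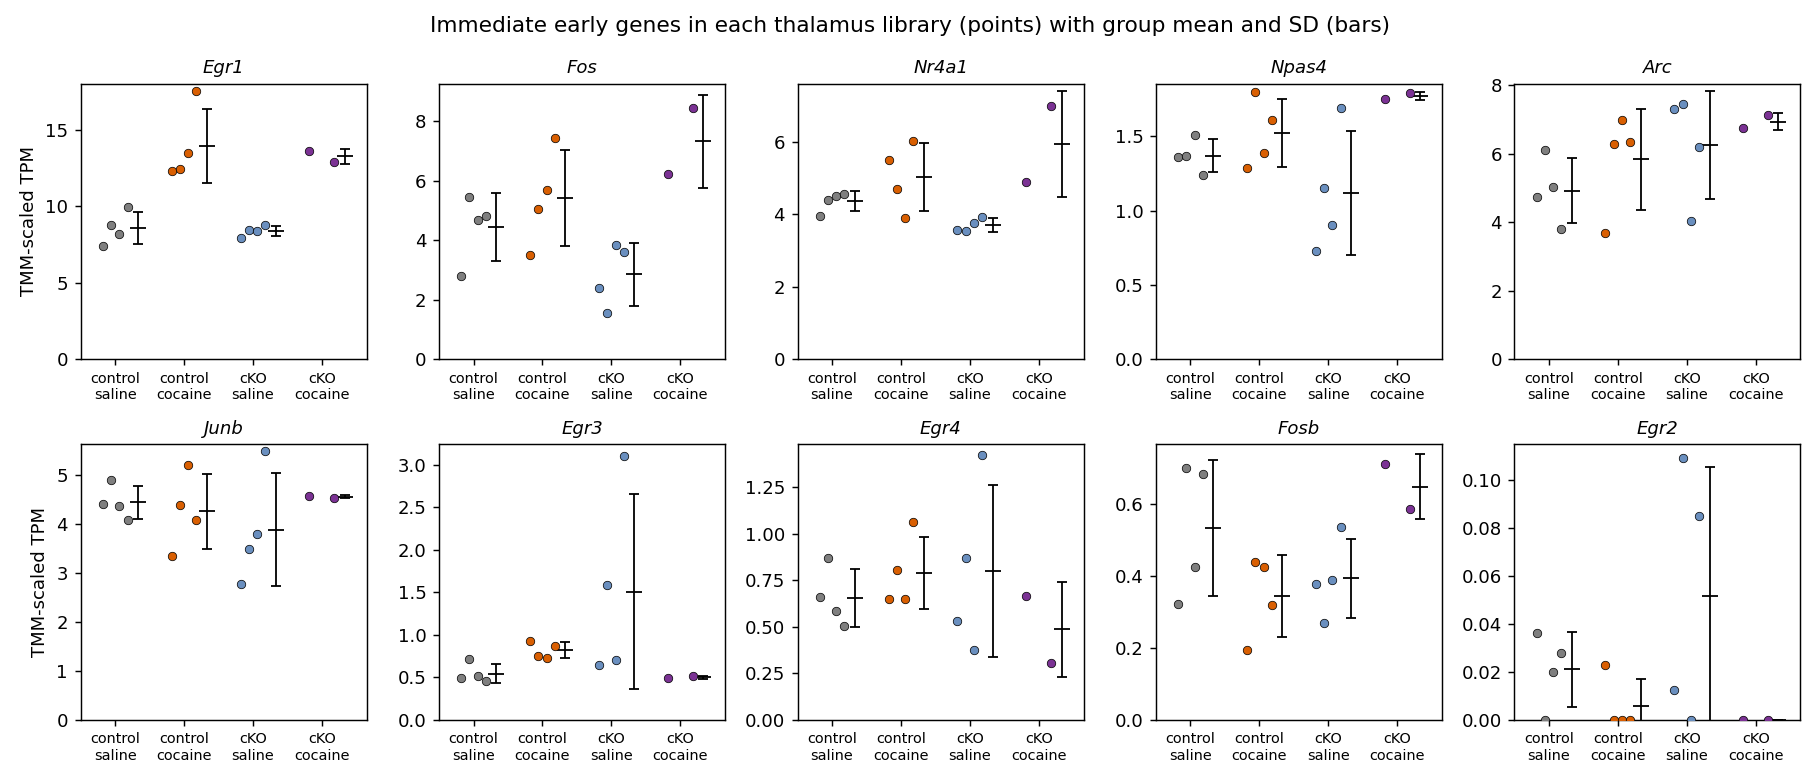
Scaled TPM (y axis, linear, from 0, a scale of its own in each panel) of the 10 genes in each library (points) by labelled group, with the group mean and SD as bars, cut off at 0. Egr1 is above 12 in all 6 cocaine libraries and below 10 in all 8 saline libraries, Fos overlaps, and in Egr3 the high values are cKO saline 2 and 4.

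Cocaine against saline asked which of these genes differed after repeated cocaine. With both genotypes averaged, Egr1 and Fos rose, by 0.65 and 0.76 on the log2 scale, and none of the other tested genes passed. These 2 of 6 stood beside 2.07% of all tested genes called in this comparison, 1.05% of them higher. Nr4a1 had an adjusted p under 0.05 in limma, as had 17.4% of all genes in the upward direction, at a fold change under the minimum, and Npas4, Arc and Junb did not pass. All 6 had a positive log2 fold change, as had 51.5% of all genes, and their median was 0.35 beside 0.01 over all genes.

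Egr1, a zinc finger factor also known as Zif268 that binds GC-rich sites, was at 7.42, 8.77, 8.17 and 9.93 scaled TPM in control saline and at 12.3, 12.4, 13.5 and 17.5 in control cocaine. It was at 7.93, 8.43, 8.36 and 8.78 in cKO saline and at 13.6 and 12.9 in cKO cocaine. All 6 cocaine libraries were above all 8 saline libraries, with the highest value in control cocaine 4, and such a separation upwards was seen in 5.77% of all tested genes. The averaged log2 fold change was 0.65 (SE 0.08, 95% confidence interval 0.47 to 0.82), a 1.56-fold rise of scaled TPM + 0.5, with an adjusted p of 0.000115 in limma. The exact two-sided permutation test within labelled genotypes gave 0.0019, the smallest p it can give. Here and below, this test pairs the groups by their labels. Its p, unlike the averaged value, can thus depend on which cocaine group carries which genotype name. In control libraries the log2 fold change was 0.66 (SE 0.10, limma adjusted p = 0.00103) and in cKO libraries 0.63 (SE 0.13, limma adjusted p = 0.00542). The interaction was −0.03 with an interval of −0.39 to 0.32.

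Fos, the AP-1 subunit most used to map active neurons, was at 2.79, 5.46, 4.67 and 4.82 scaled TPM in control saline and at 3.51, 5.05, 5.67 and 7.43 in control cocaine. It was at 2.40, 1.55, 3.83 and 3.60 in cKO saline and at 6.21 and 8.43 in cKO cocaine. The control groups overlapped, whereas both cKO cocaine libraries lay above all 4 cKO saline libraries. The averaged log2 fold change was 0.76 (SE 0.21, interval 0.31 to 1.22, limma adjusted p = 0.014), and the exact permutation test gave 0.0229. It was 0.25 in control libraries (SE 0.26, limma adjusted p = 0.519) and 1.27 in cKO libraries (SE 0.32, limma adjusted p = 0.0163). The difference between these effects did not pass (interaction 1.02, SE 0.42, limma adjusted p = 0.215). Without cKO cocaine 2 the averaged value was 0.66 (limma adjusted p = 0.086) and the cKO value 1.07 (limma adjusted p = 0.16), neither of which passed, and with the 10 libraries whose labels agree the averaged value was 0.63 (limma adjusted p = 0.0857) and the cKO value 0.88 (limma adjusted p = 0.153). With the genotype tags in place of the titles, Fos differed by 0.81 in control libraries (limma adjusted p = 0.0639) and by 0.72 in cKO libraries (limma adjusted p = 0.183), so that the cKO call was lost, and the averaged value stayed at 0.76.

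Nr4a1, an orphan nuclear receptor, was at 3.95, 4.40, 4.50 and 4.56 scaled TPM in control saline and at 5.50, 4.69, 3.89 and 6.01 in control cocaine. It was at 3.56, 3.54, 3.77 and 3.93 in cKO saline and at 4.90 and 6.98 in cKO cocaine. The control groups overlapped and the cKO groups did not. The averaged log2 fold change was 0.39 (SE 0.09, interval 0.18 to 0.59, limma adjusted p = 0.00731), with an exact permutation p of 0.0152. In cKO libraries it rose by 0.60 (SE 0.15, limma adjusted p = 0.013), against 0.17 in control libraries (SE 0.12, limma adjusted p = 0.311), and the interaction was 0.43 (SE 0.19, limma adjusted p = 0.246). Without cKO cocaine 2, whose level was the highest of all, the cKO value was 0.36 and did not pass (limma adjusted p = 0.204). Nor did it pass with the genotype tags (0.44, limma adjusted p = 0.0831), with the 10 libraries whose labels agree (0.55, limma adjusted p = 0.136) or with each library's trends on GC content and transcript length removed (0.46, limma adjusted p = 0.0583). Without cKO cocaine 1 the averaged value was 0.50 and passed (limma adjusted p = 0.00262).

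Npas4, a neuron-restricted bHLH-PAS factor induced by calcium entry, ranged from 1.24 to 1.51 scaled TPM in the control saline group and from 1.29 to 1.80 after cocaine. In the cKO it ranged from 0.730 to 1.69 after saline and was at 1.75 and 1.79 after cocaine. It passed in the cKO comparison only when cKO saline 4 was left out (0.68, limma adjusted p = 0.00957, against 0.52 and 0.0637 with all libraries). Its averaged log2 fold change was 0.32 (SE 0.12, interval 0.06 to 0.57, limma adjusted p = 0.0589). Arc, the synaptic protein, ranged from 3.81 to 6.10 scaled TPM in control mice after saline and from 3.69 to 7.0 after cocaine, and in cKO mice from 4.03 to 7.47 after saline, with 6.76 and 7.13 after cocaine. The groups overlapped, and the averaged log2 fold change was 0.19 (interval −0.16 to 0.54, limma adjusted p = 0.403). Junb, a partner of Fos in AP-1, ranged from 4.09 to 4.90 in the control saline group and from 3.35 to 5.21 after cocaine, and in the cKO from 2.78 to 5.49 after saline, with 4.58 and 4.54 after cocaine. Its averaged log2 fold change was 0.09 (interval −0.18 to 0.35, limma adjusted p = 0.623). The upper bound for Junb, 0.35, was below the lower bound for Egr1, 0.47, whereas the interval of Arc overlapped that of Egr1.

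Within the labelled genotypes, 1 of the 6 genes passed in control libraries (Egr1, beside 3.1% of all genes called and 1.54% called higher) and 3 in cKO libraries (Fos, Egr1 and Nr4a1, beside 3.07% and 1.83%). These comparisons rest on separate saline and cocaine libraries. With 2 cKO cocaine libraries, the exact permutation test cannot go below 0.133 there, which Egr1, Fos, Nr4a1 and Npas4 reached. Both cocaine libraries were above all saline libraries in 21.1% of all tested genes in the cKO comparison, and all 4 above all 4 in 14.9% in the control comparison.

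**Figure D2:**
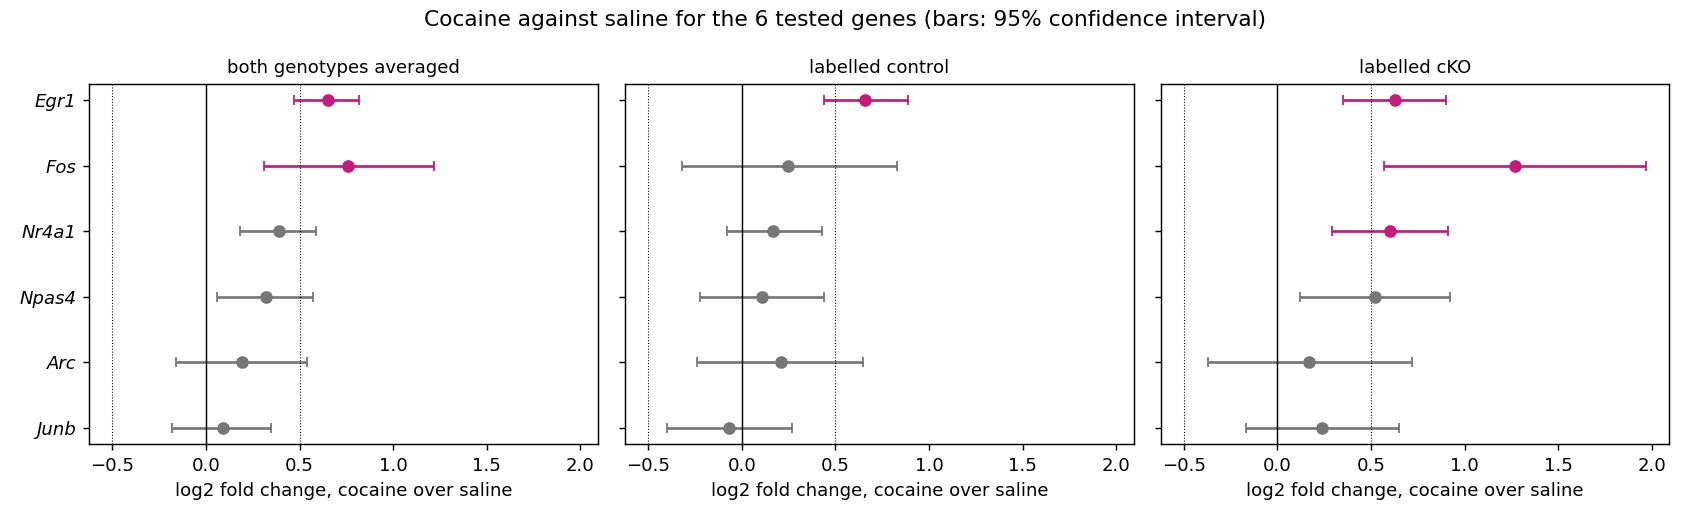
Log2 fold change of cocaine over saline (x axis) for the 6 tested genes with 95% confidence intervals, for both genotypes averaged, libraries labelled control and libraries labelled cKO. Coloured points passed the test, and dotted lines mark the fold change minimum of 0.5. Egr1 lies near 0.65 in all 3 panels, and Fos at 0.25 in control and 1.27 in cKO with wide intervals.

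The values depend on the scaling between libraries. On the TPM as deposited, Egr1 was at 7.96 to 10.9 in the control group after saline and 10.4 to 15.2 after cocaine, so that these overlapped, and in the cKO at 9.09 to 10.1 after saline and 12.8 and 10.4 after cocaine. Its averaged log2 fold change was then 0.28 (limma adjusted p = 0.0133), under the fold change minimum, beside a median of −0.34 over all genes. That of Fos was 0.42 (limma adjusted p = 0.077). For Junb and Arc the sign changed, to −0.25 and −0.16. Median-of-ratios scaling and quantile normalization left Egr1 and Fos past the test in the averaged comparison, as did removal of each library's trends on GC content and transcript length. With those trends removed, however, the cKO calls of Egr1 and Nr4a1 were lost, and that of Fos was kept. Egr1 (0.49, limma adjusted p = 0.0299) missed the fold change minimum only, and Nr4a1 (0.46, limma adjusted p = 0.0583) missed both limits.

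**Figure D3:**
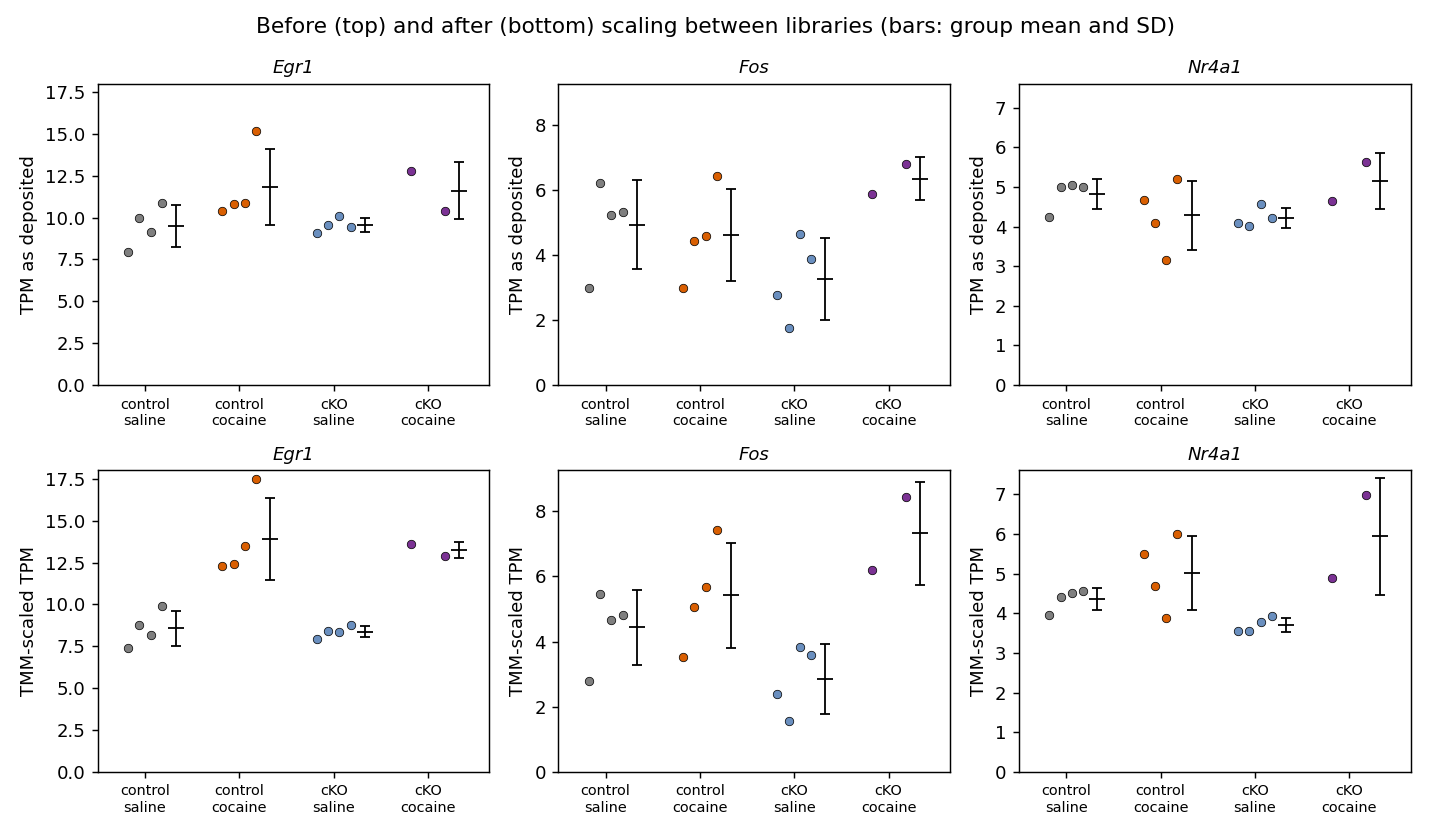
TPM as deposited (top row) and after TMM scaling (bottom row) for Egr1, Fos and Nr4a1 in each library (points) by labelled group, with mean and SD as bars and the y axis shared within a gene. Egr1 in cocaine libraries is at 10.4 to 15.2 as deposited and at 12.3 to 17.5 after scaling.

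The 4 genes below the filter gave values near the floor of the data, and their fold changes are not tested across genes here. Egr3, a calcineurin-responsive zinc finger factor, was at 0.496, 0.709, 0.510 and 0.458 scaled TPM in control saline and at 0.923, 0.748, 0.728 and 0.864 in control cocaine. It was at 0.642, 1.58, 0.708 and 3.10 in cKO saline and at 0.488 and 0.511 in cKO cocaine. After scaling the control cocaine libraries were thus all above, and the cKO cocaine libraries all below, their saline counterparts. As deposited the control groups overlapped, with 0.805 TPM in control saline 2 and 0.784 in control cocaine 1. The exact permutation test of the control difference (0.34 on the log2 scale) gave 0.0286, the smallest p for 4 against 4, and that of the cKO difference (−0.84) gave 0.133, the smallest for 2 against 4. Among tested genes, 14.9% were higher in all control cocaine than in all control saline libraries. A share of 22.2% was lower in both cKO cocaine libraries than in all cKO saline libraries. Egr4 ranged from 0.306 to 1.42 over all libraries, with its highest value, like that of Egr3, in cKO saline 4. Fosb ranged from 0.194 to 0.711, being at 0.322 to 0.700 and 0.194 to 0.437 in control mice after saline and cocaine, and at 0.268 to 0.536 and 0.584 to 0.711 in cKO mice. The exact permutation p of Fosb was 0.20 in the control and 0.133 in the cKO comparison.

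The comparison of cKO against control asked whether the genotype label went with different levels. After saline, 0 of the 6 tested genes passed in limma, beside 0.0445% of all genes called, and 1 of the 6 (Fos) had an unadjusted p under 0.05, as had 16.7% of all genes. Its log2 difference, cKO minus control, was −0.59 (SE 0.26, limma adjusted p = 0.284). Nr4a1 was lower in all 4 cKO saline libraries (3.54 to 3.93) than in all 4 control saline libraries (3.95 to 4.56), as were 5.8% of all tested genes, with a log2 difference of −0.21 (limma adjusted p = 0.404, exact permutation p = 0.0286). As deposited these Nr4a1 groups overlapped, with 4.56 TPM in cKO saline 3 and 4.24 in control saline 1. Egr1 differed by −0.03 (interval −0.25 to 0.20). With the genotype tags in place of the titles, the saline differences of Fos and Nr4a1 turned to 0.52 and 0.11. Groups by tag mix saline libraries of high and low Maged1. After cocaine, 0 of 6 passed (0.0371% of all genes called), 0 had an unadjusted p under 0.05 (12.1% of all genes), and the log2 differences ranged from −0.06 (Egr1) to 0.43 (Fos). The interaction passed in 0 of 6, beside 0.854% of all genes, with an unadjusted p under 0.05 in 2, Fos and Nr4a1, as in 18.5% of all genes.

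The 6 tested genes differed in how much they varied between libraries of 1 group. The residual SD on the log2 scale was 0.42 for Fos, larger than that of 95.7% of tested genes, 0.325 for Arc, 0.243 for Junb, 0.22 for Npas4, 0.182 for Nr4a1 and 0.161 for Egr1, beside a median of 0.108 over all genes. Egr1 and Fos thus had averaged fold changes of similar size but errors of 0.08 and 0.21. Across the 14 libraries, which share their groups and scaling, Fos and Nr4a1 had a Pearson correlation of 0.75, Egr1 and Nr4a1 of 0.709 and Fos and Egr1 of 0.708. After the group means were taken out these fell to 0.371, 0.368 and 0.585. Junb and Npas4 correlated at 0.733, and at 0.747 without group means, whereas Arc was at 0.071 with Fos and at −0.0337 with Nr4a1.

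The genes whose pattern was most like the mean of the 6 were Zer1 (Pearson r = 0.938, Spearman rho = 0.864), Prrc2b (0.932 and 0.886), Wdtc1 (0.93 and 0.881), Dmtn (0.918 and 0.873) and Sptb (0.91 and 0.903), over 14 libraries. Their cocaine differences were small: Zer1 was at a mean of 30.1 scaled TPM in control saline and 33.3 in control cocaine. The likeness is a description across libraries that share groups and scaling, and no test was made.

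Other genes that respond rapidly to stimulation were set beside the 10. Of 39 tested, 6 rose with cocaine in the averaged comparison, beside 1.05% of all genes, and 0 fell. A positive log2 fold change was seen in 29, beside 51.5% of all genes, and the median was 0.18. Zfp36, an RNA-binding protein that speeds decay of AU-rich transcripts, rose by 0.71 (SE 0.14, limma adjusted p = 0.00235), and Per1, a clock gene with an early response, by 0.60 (SE 0.09, limma adjusted p = 0.000311). Cebpb, a bZIP factor, rose by 0.72, the zinc finger factor Klf2 by 0.66, the small GTPase Arl4d by 0.63 and Gadd45g, a growth arrest and DNA damage gene, by 0.50. Per1 means were 13.1 and 11.5 scaled TPM in the control and cKO saline libraries and 18.2 and 19.8 in the cocaine libraries. Zfp36 was near the 1 TPM of the filter, at means of 0.826 and 0.743 after saline and 1.49 and 1.64 after cocaine. The salt-inducible kinase Sik1 rose in cKO libraries (0.60) and the MAP kinase phosphatase Dusp5 in control libraries (0.53), and neither passed in the averaged comparison. Sik1 lost its call without cKO cocaine 1, cKO cocaine 2 or cKO saline 1, Dusp5 in 5 of the fits that left out 1 library, and both with GC content and length trends removed (0.48, limma adjusted p = 0.0747, and 0.43, limma adjusted p = 0.0643). Per1, Arl4d, Zfp36 and Klf2 passed the averaged comparison whichever single library was left out, Cebpb in all cases but without cKO cocaine 2, and Gadd45g in 7 of 14. With GC content and length trends removed, Arl4d, Klf2 and Zfp36 passed, and Per1, Cebpb and Gadd45g no longer did. Per1 (0.46, limma adjusted p = 0.00226) and Gadd45g (0.37, limma adjusted p = 0.0224) missed the fold change minimum only. Cebpb (0.59) had an adjusted p of 0.0527 in limma. Close relatives of the 10 did not pass: Jun was at 0.18 (limma adjusted p = 0.052), Nr4a2 at 0.23 (0.60) and Nr4a3 at 0.26 (0.37). As deposited, 0 of the 39 rose and 2 fell, Arf4 and Fbxo33, and the median was −0.17, beside −0.34 over all genes.

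The factors and kinases that act on these promoters, with partners of their products, passed in few cases. Of 30 tested, 0 passed in the averaged comparison in limma, with an unadjusted p under 0.05 in 14, as had 42.7% of all tested genes, and the median log2 fold change was 0.04. Several had an adjusted p under 0.05 in limma, as had 32.7% of all genes, and missed the fold change minimum only. Among them were Crebbp (0.38, limma adjusted p = 5.63e-05), Mef2d (0.23, limma adjusted p = 0.000845) and, downwards, Rps6ka5 (−0.25, limma adjusted p = 0.0103). In cKO libraries Nab2, a co-repressor that binds Egr proteins and is itself a target of them, fell by 0.50 on the log2 scale (SE 0.09, limma adjusted p = 0.00219), at the fold change minimum, and did not pass without cKO cocaine 2 or cKO saline 4. Its means were 3.81 and 4.91 scaled TPM in control saline and cocaine and 4.48 and 3.01 in cKO saline and cocaine, and the interaction passed (−0.83, limma adjusted p = 0.00793). Camk4, a calcium-dependent kinase that phosphorylates CREB, fell by 0.53 in cKO libraries (limma adjusted p = 0.00794), though not without cKO cocaine 1, cKO saline 2 or cKO saline 3. It had an interaction of −0.84 (0.0257), which no longer passed without control saline 2, cKO saline 1, cKO cocaine 1 or cKO cocaine 2. Rps6ka2, a kinase downstream of ERK, had an interaction of 0.65 (0.0436), which no longer passed in 11 of the 14 fits that left out 1 library. Of 13 delayed activity-regulated genes tested, such as Bdnf and Nptx2, 0 passed in the averaged comparison in limma. An unadjusted p under 0.05 was seen in 1, beside 42.7% of all genes. The labelled genotypes differed in direction. A positive log2 fold change was seen in 12 of the 13 in control libraries (median 0.20), beside 52.1% of all genes. In cKO libraries it was seen in 3 (median −0.09), beside 50.2%. The activin subunit Inhba rose in control libraries (0.60, SE 0.17, limma adjusted p = 0.0198), though not without control saline 1 or 3. Its level was low, at means of 0.545 and 1.08 scaled TPM in control saline and control cocaine. Interactions between genotype and treatment rest on the labels that Maged1 goes against.

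**Figure D4:**
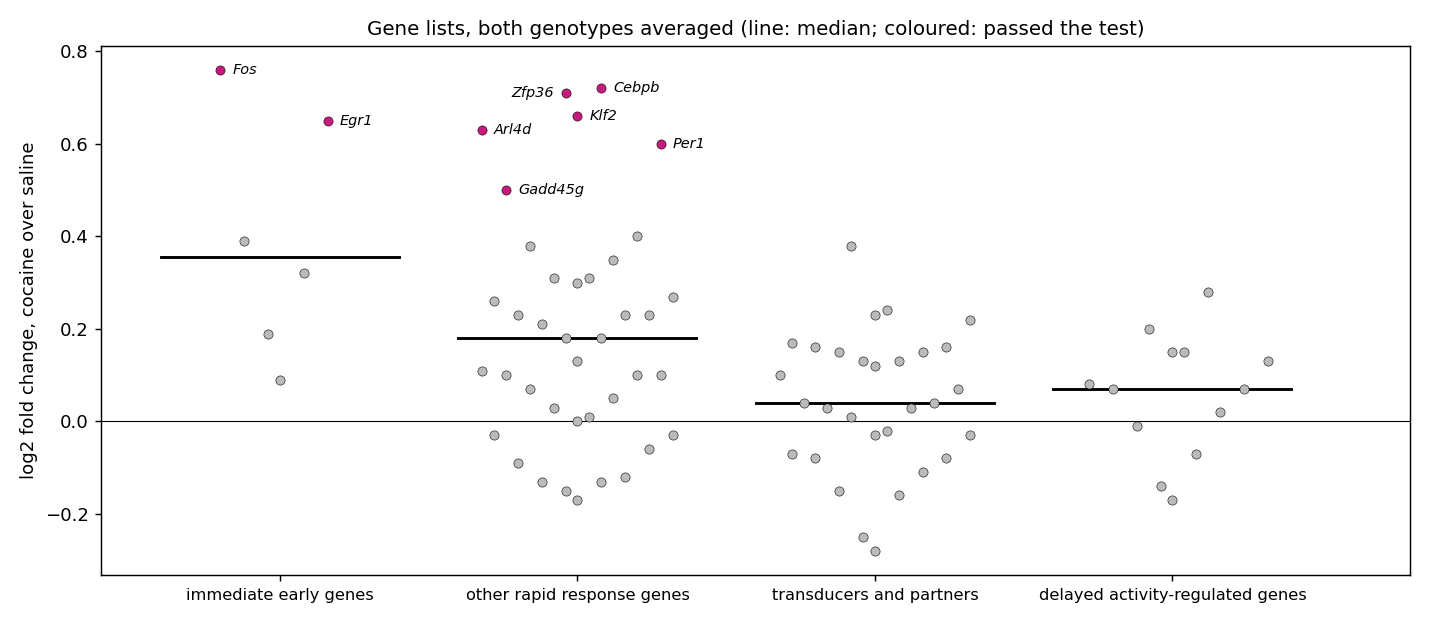
Averaged log2 fold change of cocaine over saline (y axis) for each tested gene of 4 lists: 6 immediate early genes, 39 other rapid response genes, 30 transducers and partners and 13 delayed activity-regulated genes. Lines are list medians (0.35, 0.18, 0.04 and 0.07), and named coloured points passed the test.

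Markers of the thalamus itself and of neighbouring regions moved with some of these comparisons. Of the 12 thalamus markers, 10 had a positive averaged log2 fold change (median 0.21), 0 passed in limma, and 6 had an unadjusted p under 0.05, beside 42.7% of all genes. In control libraries Synpo2 (0.61), Prkcd (0.75) and Lef1 (0.55) rose and Calb2 fell by 0.68 on the log2 scale, and in cKO libraries Gbx2 (0.94) and Calb2 (0.94) rose.

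In the averaged comparison 4 of 13 tested hypothalamus markers fell, among them Oxt and Avp, beside 1.02% of all genes. In control libraries 6 did, beside 1.56% of all genes. The list summed to 148 to 529 in control saline and 12.9 to 145 in control cocaine. In cKO libraries Cartpt, a hypothalamic peptide gene, rose by 2.49. Of 10 habenula markers 0 passed in limma in any comparison. In the averaged one, 0 had an unadjusted p under 0.05, beside 42.7% of all genes. They summed to 63.7 to 91.3 and 11.7 to 195 in control mice after saline and cocaine. In cKO mice the sums were 18.0 to 64.6 and 35.4 to 73.9. Fos and Nr4a1 had log2 differences of −0.59 and −0.21 between the saline groups. There 9 of the 10 habenula markers were also lower in the cKO, with a median log2 difference of −1.24. Of these 10, 5 had an unadjusted p under 0.05, beside 16.7% of all genes. Also lower were 12 of 13 hypothalamus markers, of which Oxt passed. The interaction passed in 5 of these 13, beside 0.854% of all genes. In cKO saline the library with the most habenula signal was cKO saline 4 (64.6). It also had the highest Egr1, Egr3, Egr4, Fosb, Junb, Nr4a1 and Npas4 of its group, but not the highest Fos, Arc or Egr2. In control cocaine the order of most genes was the other way. The library with the most habenula signal, control cocaine 1 (195), had the lowest Fos, Egr1, Junb, Arc, Fosb, Egr4 and Npas4. Of these, Egr1 (12.3 beside 12.4 in control cocaine 2) and Egr4 (0.649 beside 0.65 in control cocaine 3) were nearly tied. Control cocaine 1 had the highest Egr3 (0.923) and Egr2 (0.0228), and its Nr4a1 was neither lowest nor highest. The library with the least habenula signal, control cocaine 4 (11.7), had the highest Fos, Egr1, Egr4 and Nr4a1. The 10 stress chaperones summed to 956 to 1020 and 1060 to 1200 in control mice after saline and cocaine, and to 957 to 1090 and 1120 to 1140 in cKO mice. Of these, 0 passed in limma in the averaged comparison, and 9 had an unadjusted p under 0.05, beside 42.7% of all genes. Hspa1a was higher in cKO cocaine (0.50). Of the 10 vascular, 10 microglia and 10 telencephalon markers tested, 0 passed in limma in the averaged comparison. An unadjusted p under 0.05 was seen in 5, 2 and 0 of them, beside 42.7% of all genes. In cKO libraries the vascular receptor gene Kdr fell by 0.53 on the log2 scale. Of 9 ependyma and choroid plexus markers 0 passed and 0 had an unadjusted p under 0.05 in the averaged comparison, beside 42.7% of all genes. But 9 were lower in cKO than in control saline, 7 at an unadjusted p under 0.05, beside 16.7% of all genes. All 9 had a positive interaction (median 1.80), 8 at an unadjusted p under 0.05, beside 18.5% of all genes. Rsph1 rose in cKO libraries (1.26, limma adjusted p = 0.0359). The part of any of these in the values of the immediate early genes was not tested.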

How the data were processed

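Total RNA of the microdissected thalamus was sequenced as stranded, ribosome-depleted paired-end libraries. The authors deposited 1 table of TPM per library, made with STAR 2.5.3a and salmon on GRCm38 per the methods and the submitters' processing notes. In 2 of the deposited tables, recorded as other, the values are TPM with a decimal comma, read as a point. The methods give 1 approximate read depth for all samples, and the exact depth of each library is unknown. Listed TPM summed to 312659 to 377401 per library. Groups follow the titles. The methods call the samples independent. Whether each came from a single animal or a pool is not stated.

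Libraries were brought to a common scale with TMM factors without weights (30% of ratios and 5% of means trimmed), and log2(scaled TPM + 0.5) was analysed. A means model of the 4 groups with an intensity trend was fitted in limma 3.58.1 (R 4.3.3), with Benjamini-Hochberg adjustment over 13471 genes. Exact two-sided permutation tests of single genes used Python 3.11.15 (numpy 2.4.6, pandas 2.3.3, scipy 1.17.1). The procedure was tested on simulated data: 200 of 13259 genes were given a log2 change of 1 in control cocaine, of which 191 (95.5%) were called, with 2 false calls. The simulated libraries had independent noise and no scaling difference between treatments. These figures are for the control comparison and do not cover smaller changes or the averaged and cKO comparisons. Named genes were all 10 members, at most 6 called genes per other list and comparison, Maged1, relatives of members (Jun, Nr4a2 and Nr4a3, chosen after their values were seen), and the 5 genes most like the members. Members and lists were chosen with earlier results of these data known.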

Additional observations from a re-analysis of the deposited data

Results flagged for a closer look

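After scaling, Egr3 moved in opposite directions in the labelled genotypes. All 4 control cocaine libraries were above, and both cKO cocaine libraries below, the saline libraries of the same label. On TPM as deposited the control groups overlapped. The interaction was −1.18 on the log2 scale. Egr3 is below the filter on low values, and in a limma fit without that filter the adjusted p was 0.226, with an unadjusted p of 0.0222. There the control difference of 0.34 had a limma adjusted p of 0.489, and the cKO difference of −0.84 one of 0.148. The high values were 1.58 and 3.10 scaled TPM in cKO saline 2 and 4. Fosb, also below the filter, had log2 fold changes of −0.28 in control and 0.37 in cKO libraries, with overlapping control groups. In the same fit without the filter its interaction was 0.65, with an adjusted p of 0.173 in limma and an unadjusted p of 0.0128.

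Egr2 was listed at 0.0228 scaled TPM in control cocaine 1 and at 0 in the other 3 control cocaine libraries, and this sample was flagged. With 3 libraries at 0, any value above 0 is flagged, so that the flag says nothing about its size. The value is at the floor of the data. In all, 30 groups of 4 libraries were examined for a sample that stands apart, and chance alone gives about 1 in 20 in groups without tied values.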

How the results depend on the processing

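Of 972 single values of the 6 tested genes under 14 other settings and 14 leave-one-out fits, 909 kept their direction and their side of the threshold, 16 lost and 3 gained a call, and 44 changed sign, of which all were values that had not passed. The cause of these changes was not tested, except where the setting itself removes genes or libraries.

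Counts of members called moved as follows. On TPM as deposited they were 0 averaged, 0 in control and 1 in cKO libraries, as the median gene shifts by −0.34. With a mean of at least 5 TPM they were 1 averaged and 1 in cKO, since Fos and Nr4a1 are then not tested. With the 10 libraries whose labels agree they were 1 averaged and 0 in cKO, with genotype tags 1 in cKO (Egr1 kept), and with GC content and length trends removed 1 in cKO (Fos kept). Leaving out 1 library gave 1 to 3 averaged, 1 to 1 in control, 1 to 4 in cKO, and 0 to 0 in the other comparisons. The lowest averaged and cKO counts, 1 each, came without cKO cocaine 2, and a lone remaining library is assumed to vary like the other groups. Fits of only the groups compared give no separate averaged or interaction value. On the plus strand alone 5 genes held a CRE core, against 7 on both.

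Signs changed on deposited TPM for Fos (−0.09), Nr4a1 (−0.17), Npas4 (−0.17) and Arc (−0.14) in control, Junb (−0.25) and Arc (−0.16) averaged, Junb (−0.10) and Arc (−0.18) in cKO, and Egr1 between saline groups (0.02). With genotype tags they changed between saline groups for Fos (0.52), Junb (0.18), Egr1 (0.11), Arc (−0.39), Nr4a1 (0.11) and Npas4 (0.15), in control for Junb (0.13) and Arc (−0.14), and in the interaction for Fos (−0.09), Junb (−0.08) and Arc (0.66). With the 10 libraries they changed for Junb (−0.06 averaged, 0.00 in cKO), Egr1 (0.08) and Arc (−0.09) between saline groups, and the Arc interaction (0.36), with GC and length trends removed for Junb averaged (−0.05), and with quantile normalization for the Egr1 interaction (0.01). Leaving out 1 library took Junb in control from −0.16 to 0.03, Egr1 from −0.09 to 0.04 between saline groups, −0.11 to 0.05 between cocaine groups and −0.10 to 0.08 in the interaction, Arc in cKO from −0.01 to 0.27 and in the interaction from −0.22 to 0.07, and Nr4a1 between cocaine groups from −0.02 to 0.45.

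Replicate numbers did not pair the samples (mean correlation of deviations −0.0139 over 18 same-numbered pairs, 0.00462 over 54 others). With a replicate block the counts stayed at 2, 1, 3, 0, 0 and 0, and Egr1 changed sign between cocaine groups (0.03) and in the interaction (0.05). With TPM alone, counting error cannot be separated from variation between samples.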
